A study of Mus musculus with 4 samples.

Results

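Transcripts of 41 genes of the G2 phase and mitosis were followed in Mnk3, a cultured mouse line with features of ILC3, the innate lymphocytes that make IL-22, with and without stimulation by IL-1b and IL-23. The members are a list drawn up by name, from the kinase Cdk1 to the separase gene Espl1, with earlier results of these data known. All 41 were found once among the 41388 genes of the count tables, and all 41 were among the 13838 genes that passed the filter on low counts. The control libraries, 1 and 2, came from untreated cells, and the stimulated libraries, 1 and 2, from cells that received both cytokines, each at 10 ng/ml, for about 16 h. All 4 libraries share the same cell line, hold total RNA depleted of rRNA, and carry no genetic change that the labels name. In each group library 1 has rep1 in its title and library 2 has no number. Whether separate cultures were used is not stated in the labels, and the p-values thus speak of variation among these 4 libraries alone, possibly technical.

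Entry into mitosis is driven by CDK1 with cyclins A and B. Aurora and Polo kinases then build the spindle, the spindle checkpoint holds the cell until every chromosome is attached, and the anaphase-promoting complex (APC/C), a ubiquitin ligase, ends mitosis by marking cyclin B and securin for destruction. Most of these genes are transcribed in a wave late in the cycle. In G0 and G1 the DREAM complex holds them down through a promoter element called CHR (cell cycle genes homology region), and in G2 the same element is used by B-MYB and FOXM1 with the MuvB core, often beside CCAAT boxes bound by NF-Y. In bulk RNA, a change in the share of cells in G2 or mitosis and a change in the RNA of each such cell cannot be told apart.

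Most of the matched member promoters hold these 2 kinds of element. The members were listed by name, as genes of the class described above in which these elements are known. A share above that of all promoters is thus no independent finding. RefSeq promoter windows of 300 bases, from 250 before to 50 after the start of transcription (GRCm38.p6), were matched by symbol for 35 of the 41 members. Aurkb, Ccna2, Cdc25c, Incenp, Kif20a and Tpx2 had no match. A CHR match was TTTGAA or TTCGAA and an NF-Y match was CCAAT, each searched on both strands; matches of both kinds shared a base in 1 promoter, that of Cdca8. A CHR match was present in 28 of 35 member promoters (80.0%), against 19.4% of all 27025 promoters in the table and 14.2% of the 9940 that belong to tested genes. A CCAAT match was present in 28 of 35 (80.0%), against 37.9% of all promoters. Both were present in 25 members (71.4%), against 7.70% of all promoters. The wider list of 141 mitotic genes described below lay between, with 117 promoters matched: 46.2% had a CHR match, 54.7% a CCAAT match and 30.8% both. A match is a description of the letters and not evidence of binding.

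The CHR matches of the members lay close to the start. In 24 of 35 member promoters (68.6%) a match began within 40 bases of it, against 4.49% of all promoters and 31.6% of those of the other mitotic genes. In 18 (51.4%) there were at least 2 CCAAT matches, against 12.2%, and in 8 (22.9%) a pair of them began 31 to 35 bases apart, against 1.43%. These 3 counts were chosen after the sequences were seen. Of the 10 matched members that passed the test described below, 9 had a CHR match, 10 a CCAAT match and 8 at least 2 CCAAT matches. Of the 25 that did not pass, 19 had a CHR match, 18 a CCAAT match and 10 at least 2; the difference was not tested. The median GC content was 59.0% in member windows and 60.7% in those of tested genes.

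The stretches below run from 140 bases before to 30 after the RefSeq start, 5′ to 3′ on the gene's own strand, with CHR and CCAAT matches in capitals. They are examples: Ube2c, Hmmr, Espl1, Bub1 and Ccnb1 rose, Cenpf fell, and Ccnb2, the sister of Ccnb1, did not pass. Top2a, Bub1b, Cenpa and Kif4 also rose and are not shown. The CHR matches of Bub1b begin 188 bases before the start and at base 41 after it, outside such a stretch.
Ube2c promoter, chr2:164769789-164769958, plus strand: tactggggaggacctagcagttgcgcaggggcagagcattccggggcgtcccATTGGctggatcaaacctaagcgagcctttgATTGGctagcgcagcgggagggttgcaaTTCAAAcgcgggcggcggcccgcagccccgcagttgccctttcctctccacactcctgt
Hmmr promoter, chr11:40733408-40733577, minus strand: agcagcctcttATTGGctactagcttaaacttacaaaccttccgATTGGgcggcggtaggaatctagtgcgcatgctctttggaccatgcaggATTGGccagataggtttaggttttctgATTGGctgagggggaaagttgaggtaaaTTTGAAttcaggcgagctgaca
Espl1 promoter, chr15:102296153-102296322, plus strand: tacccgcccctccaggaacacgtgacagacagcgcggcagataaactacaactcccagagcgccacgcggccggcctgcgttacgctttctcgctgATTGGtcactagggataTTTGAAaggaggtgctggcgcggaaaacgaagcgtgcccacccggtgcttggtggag
Bub1 promoter, chr2:127831830-127831999, minus strand: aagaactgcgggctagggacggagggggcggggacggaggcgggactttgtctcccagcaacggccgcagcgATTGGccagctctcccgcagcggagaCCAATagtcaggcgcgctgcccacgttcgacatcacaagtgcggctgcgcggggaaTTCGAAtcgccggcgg
Ccnb1 promoter, chr13:100786457-100786626, minus strand: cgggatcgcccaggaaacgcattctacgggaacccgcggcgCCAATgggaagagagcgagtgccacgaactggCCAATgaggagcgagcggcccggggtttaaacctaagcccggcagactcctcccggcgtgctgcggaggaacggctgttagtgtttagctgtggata
Ccnb2 promoter, chr9:70421525-70421694, minus strand: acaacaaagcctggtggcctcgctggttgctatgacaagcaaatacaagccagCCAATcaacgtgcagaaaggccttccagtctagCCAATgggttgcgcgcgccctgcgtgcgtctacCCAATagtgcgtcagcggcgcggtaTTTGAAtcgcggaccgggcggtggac
Cenpf promoter, chr1:189688057-189688226, minus strand: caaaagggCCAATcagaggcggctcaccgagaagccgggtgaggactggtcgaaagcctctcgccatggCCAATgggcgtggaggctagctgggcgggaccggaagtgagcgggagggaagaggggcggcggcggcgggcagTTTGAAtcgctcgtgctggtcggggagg
Ube2c and Espl1 have a CHR match that begins 29 and 27 bases before the start, while those of Cenpf, Ccnb2, Hmmr and Bub1 begin at bases 3, 5, 9 and 15 after it. Ccnb1 has 2 CCAAT boxes and neither TTTGAA nor TTCGAA in these letters, whereas Ccnb2 has 3 CCAAT boxes in this stretch. Other forms of the CHR element were not searched, so Ccnb1 may hold one. So Cenpf, which fell, has the same 2 kinds of match as Bub1 and Hmmr, which rose.

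**Figure D1:**
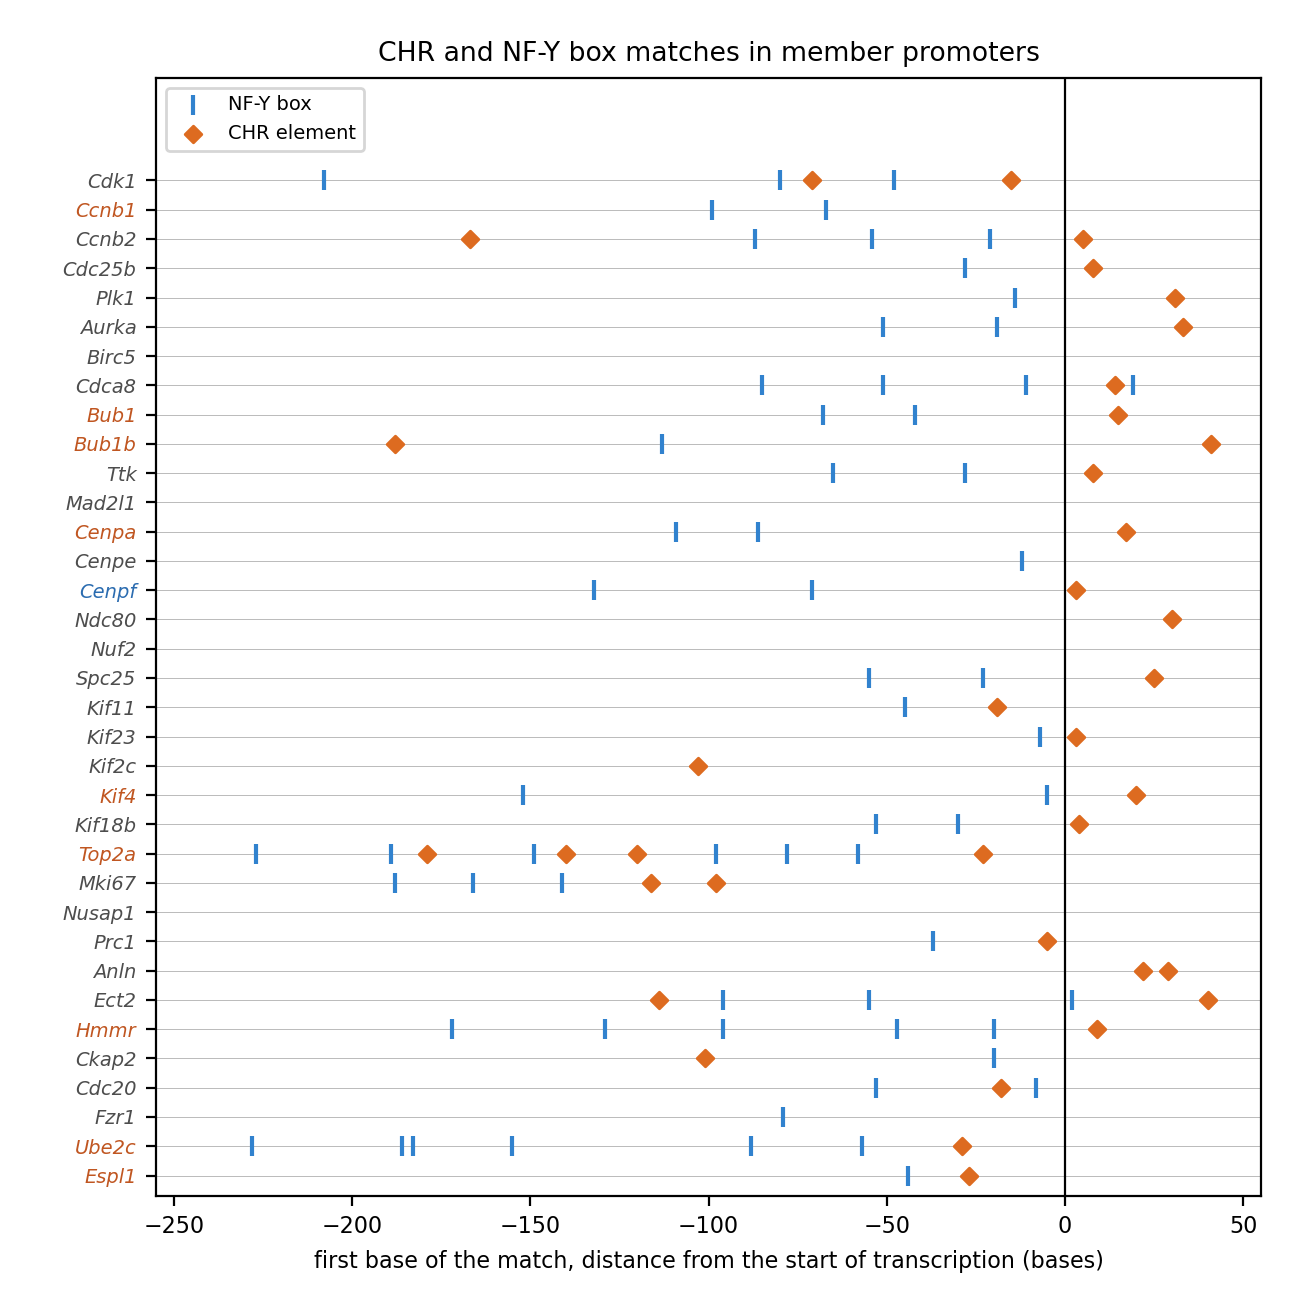
Positions of CHR (diamonds) and NF-Y box (bars) matches in the 35 matched member promoters, in bases from the RefSeq start of transcription; names in orange rose, the name in blue fell, and names in grey did not pass. CHR matches cluster around the start in 24 of 35 promoters, and NF-Y boxes lie mostly before it.

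Library depth ranged from 23047723 to 29078765 summed counts. Levels are CPM, counts relative to library size after TMM scaling (which centres the bulk of genes between libraries), and levels between genes are compared as RPKM, the same value per kilobase of listed gene length. All 9 ILC3 markers examined, Il23r and Il22 among them, had a mean of at least 1 CPM; they summed to between 3636 and 3647 CPM in the controls and to 2735 and 3299 CPM in the stimulated libraries. Lyz2, Cd14 and Hbb-bs, markers of myeloid and red cells, had 0 counts, and no B cell, stromal, epithelial or red cell marker examined had a mean of 1 CPM. Of 5 myeloid markers 1 did, Adgre1, and the 5 summed to between 0.962 and 2.12 CPM in the controls and between 2.22 and 9.37 CPM after stimulation. The T cell receptor transcript Trbc1 had the highest CPM of the non-ILC3 markers. Of 6 T cell markers 3 had a mean of at least 1 CPM, namely Trbc1, Cd3d and Trac, with Cd3e, Cd3g and Cd8a below it. All 6 summed to between 124 and 170.5 CPM in the controls and between 33.0 and 37.3 CPM in the stimulated libraries. The part of these lists in the results below was not tested.

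The members shifted upward by a small amount. Together they took 1.021% (95% Wilson interval 1.017 to 1.024) of the counts in control 1, 1.073% (1.070 to 1.077) in control 2, 1.271% (1.267 to 1.275) in stimulated 1 and 1.316% (1.311 to 1.321) in stimulated 2. Both stimulated libraries lay above both controls, and they did so without Top2a too, at 0.777% and 0.7869% in the controls and 0.8802% and 0.898% after stimulation. These intervals cover counting error only. The median member was 0.31 (stimulated 1) and 0.27 (stimulated 2) above the control mean on the log2 scale.

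By edgeR's quasi-likelihood test, 10 of the 41 members were higher after stimulation at an adjusted p under 0.05, against 17.5% of all tested genes, and 1 was lower, against 18.3%; 30 did not pass. The members that rose were Ube2c, Top2a, Bub1b, Hmmr, Ccnb1, Bub1, Espl1, Cenpa, Ccna2 and Kif4, and Cenpf fell. The share called in either direction was 26.8%, below the 35.8% of all tested genes, so members were not called more often than other genes. The changes were small and mostly of 1 sign. The median log2 fold change was 0.36, with a range from -0.53 to 0.86, beside a median of -0.02 over all tested genes; 33 of 41 fitted changes were above 0, as they were for 48.9% of all tested genes. In 28 members both stimulated libraries lay above both controls, against 34.4% of all tested genes, and in 3 both lay below, against 36.3%.

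These counts depended on the libraries, the scaling, the filter and the test. With DESeq2 14 members were higher, beside 19.0% of all tested genes, and with no low-count filter 14 were, beside 11.7%. Without stimulated 1 only Ube2c was called, and the numbers of members higher were 5 without control 1, 5 without control 2 and 6 without stimulated 2. With total-count scaling 4 were higher and 2 lower, so that 66.7% of the called members were higher in place of 90.9%. The number of fitted changes above 0 was 33 under every scaling tried, and the median ranged from 0.27 to 0.38 across all alternatives.

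**Figure D2:**
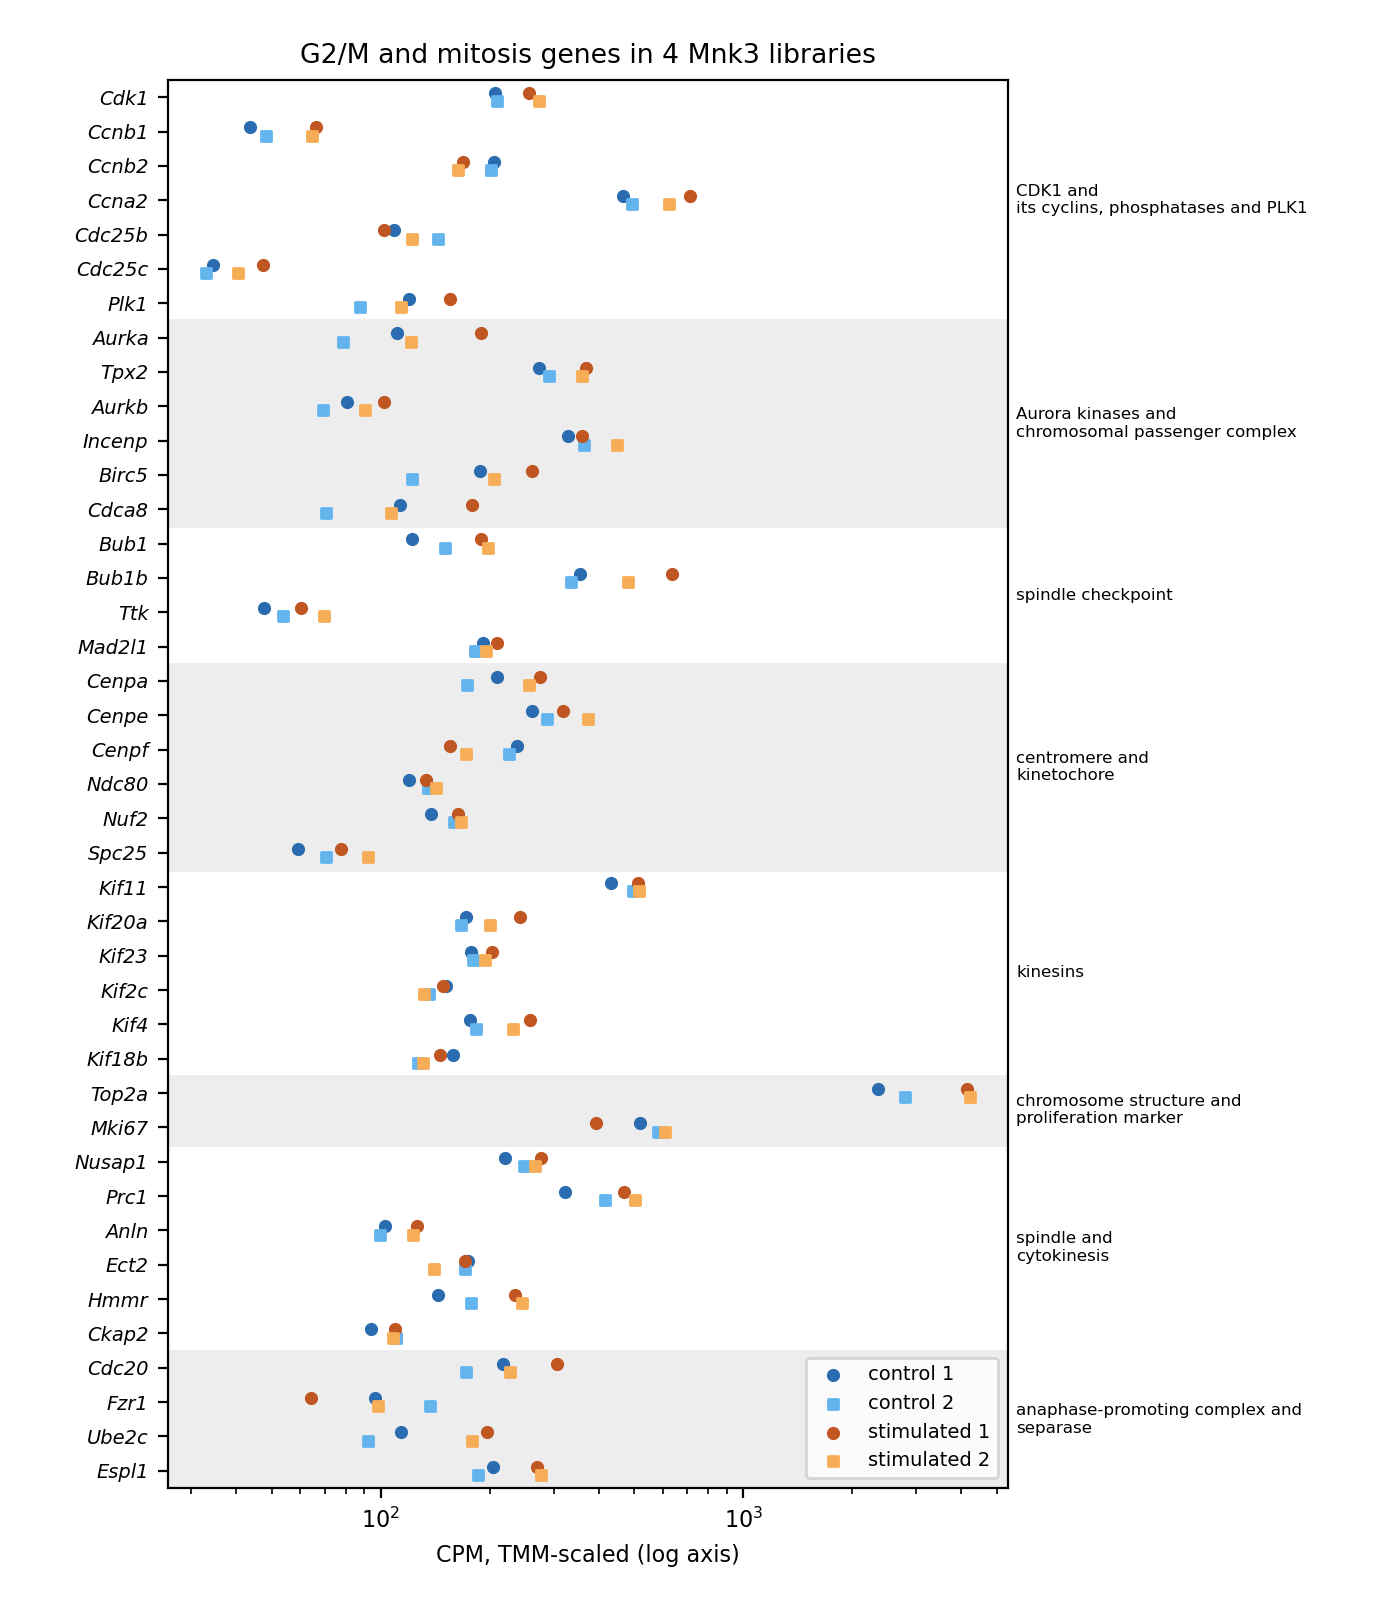
TMM-scaled CPM (log axis) of each member in the 4 libraries, ordered by role; circles are library 1 and squares library 2, blue for control and orange for stimulated. Top2a stands far above the rest, from 2352 to 4218 CPM, and for 28 of 41 members both orange points lie to the right of both blue ones.

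**Figure D3:**
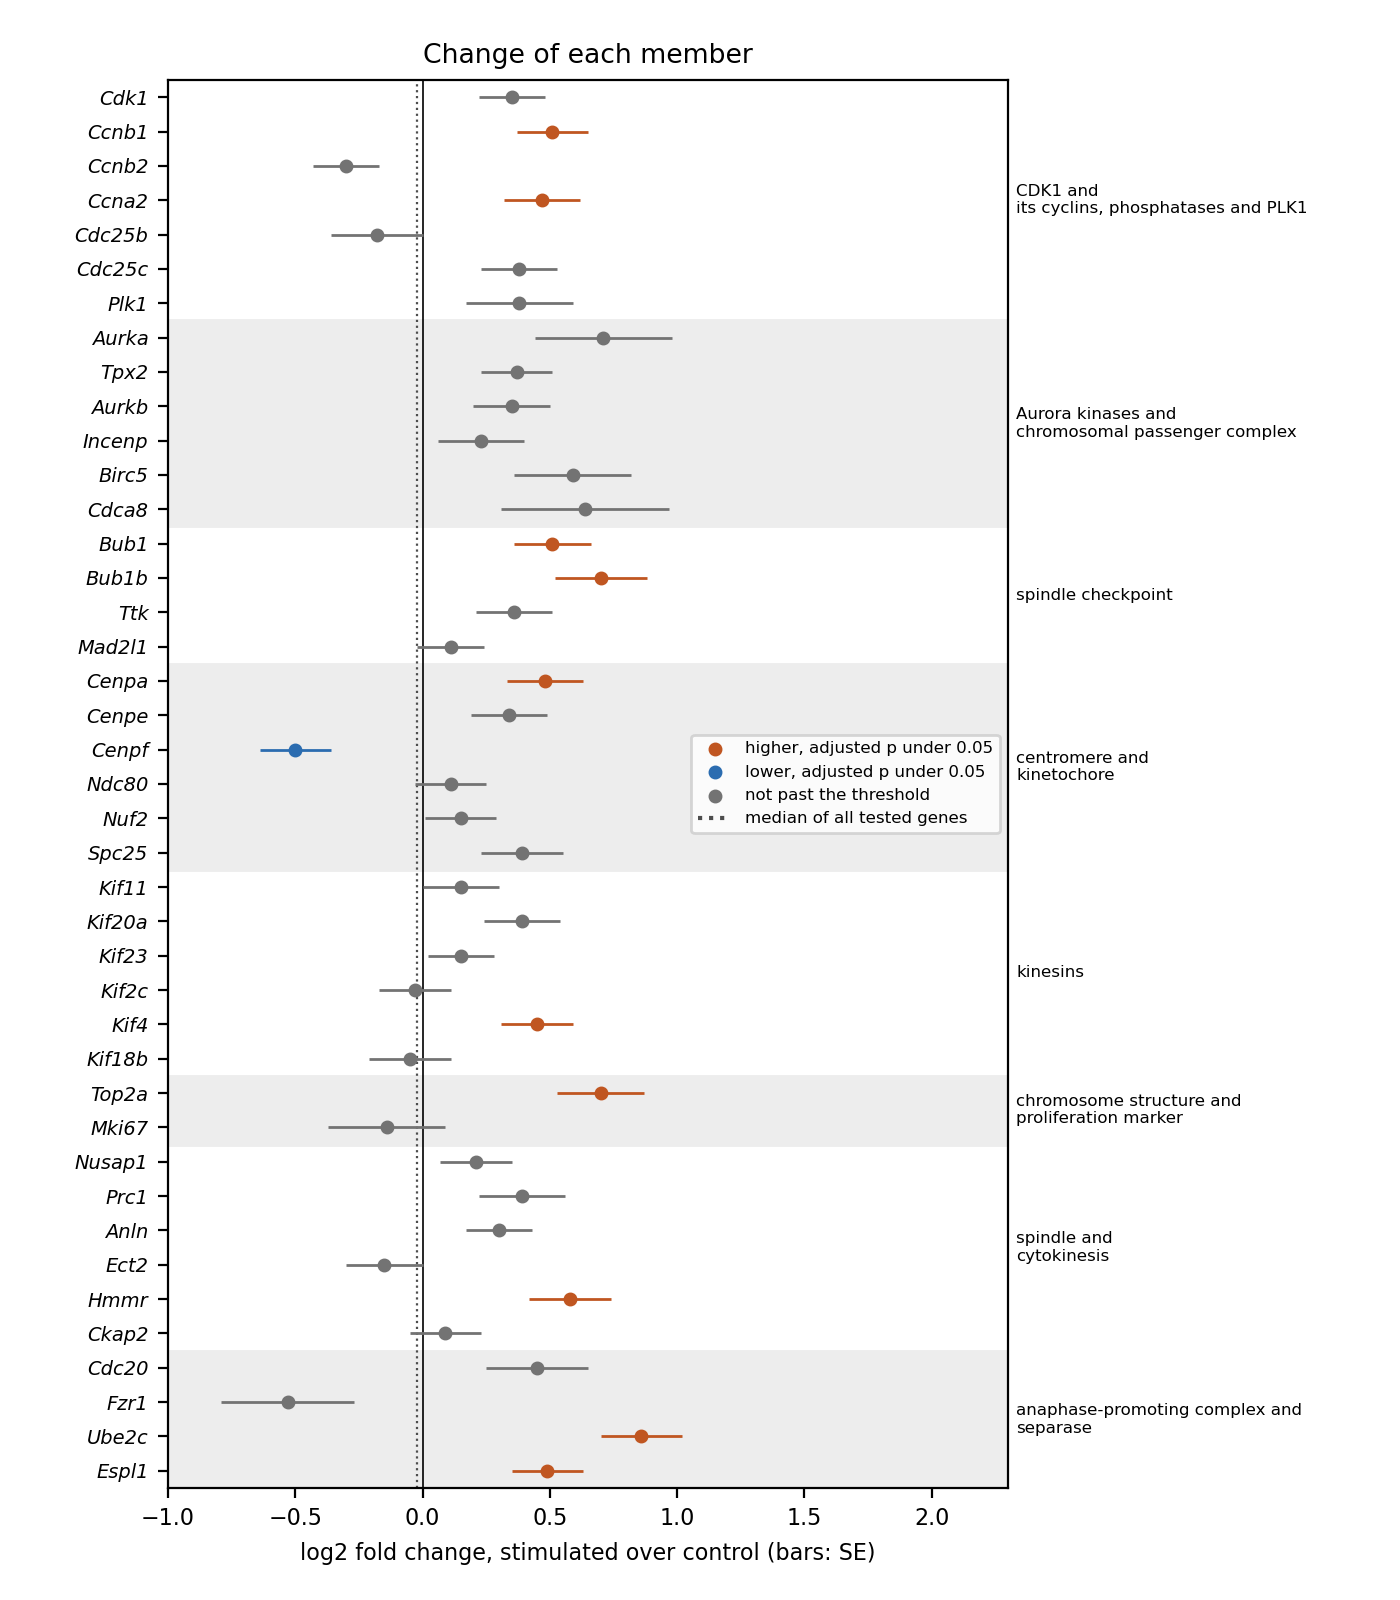
Log2 fold change of stimulated over control for each member, with its SE as a bar; orange points rose, the blue point fell and grey points did not pass, and the dotted line is the median of all tested genes. Most points lie between 0 and 0.86, with Fzr1, Cenpf and Ccnb2 the lowest.

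CDK1 and its partners divided between cyclin genes that rose and others that did not pass. Ccna2, cyclin A2, which works in S phase and early mitosis, had 467 and 494 CPM in the controls and 711 and 623 CPM in the stimulated libraries. Both stimulated values were the higher, a fold of 1.39 (log2 0.47 ± 0.15 SE, edgeR adjusted p = 0.0493). This call lay at the threshold and ended without any 1 of the 4 libraries (0.175 and 0.111 without controls 1 and 2, 0.237 and 0.0594 without stimulated 1 and 2), under upper quartile (0.0563) or total-count scaling (0.071), and without robust estimation (0.0527). Ccna2 also shares its locus with Exosc9 on the opposite strand, and Exosc9 itself changed by 0.81 (edgeR adjusted p = 0.00579). The sources used here do not say whether the counting used strand.

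Ccnb1, cyclin B1, the partner of CDK1 at mitotic entry, had 43.5 and 48.3 CPM in the controls and 66.4 and 64.8 CPM after stimulation. Its libraries were close within each group and did not overlap between groups, and the gene rose by 0.51 ± 0.14 on the log2 scale, a fold of 1.43 (edgeR adjusted p = 0.0268; 0.131 without control 1, 0.121 without stimulated 1, 0.0753 without stimulated 2). Ccnb2, cyclin B2, stood on the other side: 205 and 202 CPM in the controls and 169 and 163 CPM after stimulation. Both stimulated values were the lower, and the change of -0.30 ± 0.13 did not pass (0.124; 0.0489 with total-count scaling). Per kilobase, Ccnb2 was far above Ccnb1, at 132 against 10.9 RPKM in the controls and 108 against 15.6 RPKM in the stimulated libraries. Part of this gap comes from the listed lengths, 1541 bases for Ccnb2 and 4217 bases for Ccnb1. The difference between the changes of these 2 genes was not tested. A pseudogene, Ccnb2-ps, had 111 and 139 counts in controls 1 and 2 and 67 and 81 counts after stimulation, and reads could be shared with it.

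Cdk1 itself had 207 and 209 CPM in the controls and 257 and 274 CPM after stimulation, with no overlap, and did not pass in edgeR (0.35 ± 0.13, adjusted p = 0.0835), while DESeq2 gave an adjusted p of 0.0408. Plk1, the Polo kinase that drives entry and spindle assembly, had 0.38 ± 0.21 (0.218). Its values were 119.8 and 87.6 CPM in controls 1 and 2 and 155 and 114 CPM in stimulated 1 and 2. The groups thus overlapped, with library 1 the higher in both. With library number fitted as a block, Plk1 was called higher, beside 28.8% of all tested genes, though the labels state no pairing. The member phosphatases that remove the inhibitory phosphates of CDK1 did not pass: Cdc25c had 0.38 ± 0.15 (0.0919) and Cdc25b had -0.18 ± 0.18 (0.482). The difference between them was not tested.

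None of the 6 genes of the Aurora kinases and the chromosomal passenger complex passed in edgeR, beside 35.8% of all tested genes. All 6 fitted changes were above 0, beside 48.9% of all tested genes. An unadjusted edgeR p under 0.05 was found for 4 of the 6, beside 6376 of all 13838 tested genes. DESeq2 called 3 of the 6 higher, beside 19.0% of all tested genes, and limma-voom called 0. Tpx2, which activates Aurora A on the spindle, had 273 and 291 CPM in the controls and 368 and 358 CPM in the stimulated libraries. The groups did not overlap, at 0.37 ± 0.14 (edgeR adjusted p = 0.0777; DESeq2 0.0331). Incenp, the scaffold of the passenger complex, had 328 and 363 CPM in the controls and 359.7 and 449 CPM after stimulation, so the groups overlapped (0.23 ± 0.17, 0.329).

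Aurka, the centrosomal Aurora kinase, had the second highest fitted change of all members, 0.71 ± 0.27 (edgeR adjusted p = 0.0874), and is described for that reason, as are Birc5 and Cdca8. Its values were 111 and 78.8 CPM in the controls and 189 and 121 CPM in the stimulated libraries. Libraries of 1 group lay far apart, by 0.50 and 0.64 on the log2 scale, beside the size of the change. Library 1 was the higher in both groups. Aurka passed in DESeq2 (0.0279), with no low-count filter (0.000139), without control 1 (0.0457) and without stimulated 2 (0.0119). Birc5, which encodes survivin, showed a like picture, with 188 and 122 CPM in the controls and 261 and 206 CPM after stimulation (0.59 ± 0.23, 0.0958), and it passed in DESeq2 (0.0479), with no low-count filter (0.00255) and without control 1 (0.0086). Cdca8, borealin, had 113 and 70.8 CPM in the controls and 179 and 107 CPM after stimulation (0.64 ± 0.33, 0.200); the groups overlapped, and it passed with no low-count filter (0.00112) and without stimulated 2 (0.0427). Aurkb, the kinase of the complex, had 0.35 ± 0.15 (0.105). With library number fitted as a block, all genes of this group but Incenp were called higher, beside 28.8% of all tested genes. The labels state no such pairing.

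Of the 4 spindle checkpoint genes 2 rose, beside 17.5% higher of all tested genes. In all 4 both stimulated libraries lay above both controls, an order also met in 34.4% of the tested genes. Bub1b, which encodes BUBR1, a part of the complex that blocks the APC/C, had 354 and 334 CPM in the controls and 637 and 480.3 CPM in the stimulated libraries. It rose by 0.70 ± 0.18, a fold of 1.62 (edgeR adjusted p = 0.0227; 0.0607 without control 2 and 0.125 without stimulated 1). Bub1, the kinase that recruits checkpoint proteins to kinetochores, had 122 and 150.0 CPM in the controls and 189.6 and 198 CPM after stimulation. All stimulated values were the higher, at 0.51 ± 0.15 (edgeR adjusted p = 0.0397), and this call was lost without control 1 (0.199), stimulated 1 (0.0941) or stimulated 2 (0.105) and under upper quartile (0.0529) or total-count scaling (0.0764). Ttk, the kinase MPS1 that starts checkpoint signalling, had 0.36 ± 0.15 (0.103). Mad2l1, the MAD2 protein that is handed to CDC20, had 0.11 ± 0.13 (0.555), the smallest change of this group.

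The centromere and kinetochore genes held the single fall. Cenpf, a large protein of the outer kinetochore and nuclear matrix, had 238 and 226 CPM in the controls and 155 and 172 CPM in the stimulated libraries. Both stimulated values were the lower, and the gene fell by 0.50 ± 0.14 on the log2 scale, to 0.706 of the control level (edgeR adjusted p = 0.0294). Its direction was the same with each library left out in turn, while the call ended each time (0.0963 and 0.0571 without controls 1 and 2, 0.170 and 0.0767 without stimulated 1 and 2). Cenpa, the histone H3 variant that marks centromeres, went the other way: 209 and 173 CPM in the controls and 275 and 256 CPM after stimulation, a rise of 0.48 ± 0.15 (edgeR adjusted p = 0.0497). Cenpa lay at the threshold, and its call ended without control 2 (0.232), stimulated 1 (0.187) or stimulated 2 (0.0826), under upper quartile (0.0734) or total-count scaling (0.0919), when genes needed 1 CPM in 2 libraries (0.0526) and without robust estimation (0.0577).

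The kinetochore motor Cenpe had 0.34 ± 0.15 (0.129), and both stimulated libraries were above both controls. The 3 members of the NDC80 complex, which grips microtubule ends, did not pass: Spc25 had 0.39 ± 0.16, Nuf2 0.15 ± 0.14 and Ndc80 0.11 ± 0.14. In this complex Ndc80 and Nuf2 had similar levels per kilobase in the controls, 57.9 and 59.8 RPKM, with Spc25 at 20.3 RPKM. These levels depend on the listed lengths, which were 2201, 2481 and 3188 bases for Ndc80, Nuf2 and Spc25.

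Of the 6 kinesins, only Kif4 passed, as a rise, beside 17.5% higher and 18.3% lower of all tested genes. Kif4, a chromokinesin of the chromosome arms and the central spindle, had 176 and 183 CPM in the controls and 258 and 232 CPM after stimulation. The groups did not overlap, and the gene rose by 0.45 ± 0.14, a fold of 1.36 (edgeR adjusted p = 0.0439). The call ended without any 1 library (0.153 and 0.105 without controls 1 and 2, 0.222 and 0.0684 without stimulated 1 and 2) under upper quartile (0.0528) or total-count scaling (0.0685) and without robust estimation (0.0503), and Pdzd11 on the opposite strand changed by 0.59 (edgeR adjusted p = 0.0171). Kif20a, a motor of the midzone, had 0.39 ± 0.15 (0.0869), Kif11, which pushes spindle poles apart, 0.15 ± 0.15 and Kif23, of the centralspindlin complex, 0.15 ± 0.13. Kif2c, a microtubule depolymerase, had -0.03 ± 0.14 and Kif18b -0.05 ± 0.16. These last 2 fitted changes were the nearest to 0 of all members.

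Top2a, the topoisomerase that untangles sister chromatids, was the most abundant member and rose, whereas the proliferation marker Mki67 did not. Top2a had 2352 and 2791 CPM in the controls and 4132 and 4218 CPM in the stimulated libraries. Per kilobase it went from 285 to 463 RPKM, ahead of Ccna2 at 137 and 190.0 RPKM. It rose by 0.70 ± 0.17, a fold of 1.62 (edgeR adjusted p = 0.0203; 0.111 without control 1 and 0.0531 without stimulated 1). Mki67, which encodes Ki-67, the coat protein of mitotic chromosomes, had 519 and 582 CPM in the controls and 392 and 609.7 CPM after stimulation. The stimulated libraries enclosed the controls, and the change of -0.14 ± 0.23 did not pass (0.674). Without stimulated 1 it was 0.15.

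Among the 6 genes of the spindle and of cytokinesis, only Hmmr passed, as a rise, beside 17.5% higher and 18.3% lower of all tested genes. Hmmr, a spindle protein that brings TPX2 to microtubules, had 144 and 177 CPM in the controls and 234 and 246 CPM after stimulation. Both stimulated values were the higher, with a rise of 0.58 ± 0.16, a fold of 1.49 (edgeR adjusted p = 0.027; 0.131 without control 1, 0.0641 without stimulated 1, 0.0746 without stimulated 2 and 0.0526 with total-count scaling). Prc1, which bundles midzone microtubules, had 0.39 ± 0.17 (0.117), Anln, anillin of the contractile ring, 0.30 ± 0.13 (0.115), Nusap1 0.21 ± 0.14 and Ckap2 0.09 ± 0.14. Ect2, the exchange factor that turns on RhoA for furrowing, had -0.15 ± 0.15 (0.464). In Ect2 both stimulated libraries, at 170.4 and 140.0 CPM, lay just below both controls, at 174 and 171 CPM.

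The genes of mitotic exit held the steepest rise. Ube2c, the E2 enzyme that starts ubiquitin chains for the APC/C, had 114 and 92.3 CPM in the controls and 197 and 179 CPM in the stimulated libraries. The groups were well apart, and the gene rose by 0.86 ± 0.16, a fold of 1.82 (edgeR adjusted p = 0.00672). This was the only member whose call held under every alternative tried, with changes from 0.72 to 1.02. Tnnc2, on the opposite strand, had 0 counts in all 4 libraries. Espl1, separase, the protease that opens cohesin rings, had 204 and 186 CPM in the controls and 269.7 and 277 CPM after stimulation. The groups did not overlap, at 0.49 ± 0.14, a fold of 1.40 (edgeR adjusted p = 0.0314), but the call ended without any 1 library (0.059 and 0.142 without controls 1 and 2, 0.103 and 0.0995 without stimulated 1 and 2) and with total-count scaling (0.0607).

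The 2 activators of the APC/C had fitted changes of opposite sign. Cdc20, the activator used in mitosis, had 218 and 172 CPM in the controls and 306 and 228 CPM after stimulation (0.45 ± 0.20, 0.120). Fzr1, known as CDH1, the activator of late mitosis and G1, had 96.6 and 137 CPM in the controls and 64.1 and 98.1 CPM after stimulation (-0.53 ± 0.26, 0.169). Neither passed here, though both did without stimulated 2 (0.0467 and 0.0352) and with no low-count filter (0.0321 and 0.00766), and the difference between them was not tested. The groups of Fzr1 overlapped, with library 2 the higher in both. With library number fitted as a block, Cdc20 was called higher and Fzr1 lower, beside 28.8% and 28.9% of all tested genes. The labels state no such pairing. Elovl1, opposite Cdc20, changed by 0.74 (edgeR adjusted p = 0.0169). In all, 19 of the 41 members overlap an annotated gene on the opposite strand.

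The called members are protein-coding genes at separate loci. Their coordinates are those of the count tables, which name no build and overlap the same gene in GENCODE M21 (GRCm38) for 99.9% of matched identifiers. Ube2c spans chr2:164769898-164778822, Bub1b chr2:118598211-118641591 and Bub1 chr2:127801122-127831865. Top2a spans chr11:98992943-99024189 and Hmmr chr11:40701395-40733422. Ccna2 spans chr3:36564866-36572150, Cenpa chr5:30666777-30674827, Ccnb1 chr13:100778650-100786570, Espl1 chr15:102296293-102324356, Kif4 chrX:100625737-100727214 and Cenpf chr1:189640599-189688086.

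A wider list of 141 mitotic genes, written from textbook knowledge, showed a smaller shift. Like the members, it was chosen with earlier results of these data known, and the difference between the lists was not tested. All 141 passed the filter on low counts. Of these, 22 rose, 9 fell and 110 were short of the threshold, beside 17.5% higher and 18.3% lower of all tested genes, so rises were no more frequent than among all genes. Their median log2 fold change was 0.14. With total-count scaling 12 rose and 11 fell, and without single libraries 8 to 14 rose and 3 to 10 fell, the fewest in both cases without stimulated 1 (8 and 3; 3 also without stimulated 2). Both stimulated libraries were above both controls for 69 of the 141 and below both for 27, beside 34.4% and 36.3% of all tested genes.

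**Figure D4:**
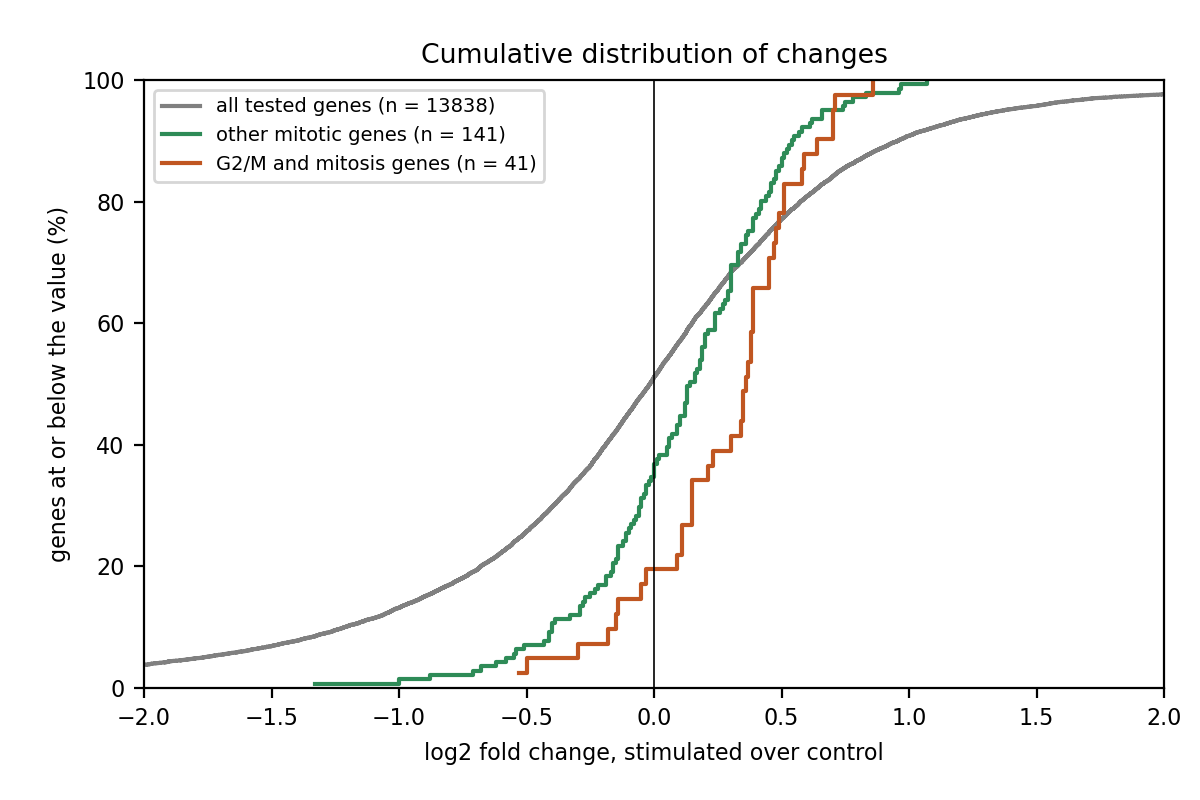
Cumulative share of genes by log2 fold change for the 41 members (orange), the 141 other mitotic genes (green) and all 13838 tested genes (grey; values beyond -2 and 2 are not shown). The member curve crosses 50% at 0.36, the other mitotic genes at 0.14 and all tested genes at -0.02.

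Of 18 genes listed under entry into and exit from mitosis, 4 rose and 2 fell, beside 17.5% higher and 18.3% lower of all tested genes. Wee1, a kinase that inhibits CDK1, had 51.4 and 54.4 CPM in the controls and 29.8 and 34.7 CPM after stimulation and fell by 0.71 ± 0.15 on the log2 scale (edgeR adjusted p = 0.0108; 0.0746 without stimulated 1). The other gene that fell was Pkmyt1, the second kinase that inhibits CDK1, named after its values were seen, at -0.54 ± 0.14 (edgeR adjusted p = 0.0229; 0.102 without control 1, 0.0822 without stimulated 1, 0.122 without stimulated 2). Cks1b, a small CDK subunit, was higher by 0.75 ± 0.18 (edgeR adjusted p = 0.0181), a call lost without control 2 (0.0627) or stimulated 1 (0.0669). The mitotic kinase Pbk was higher by 0.54 ± 0.13 (0.0199; 0.0900 without control 1, 0.0966 without stimulated 1). The other genes that rose, named after their values were seen, were Gtse1 (0.52 ± 0.14, 0.0278; 0.0545 and 0.108 without controls 1 and 2, 0.157 without stimulated 1) and Melk (0.50 ± 0.14, 0.0324; 0.160 without control 1, 0.0798 and 0.118 without stimulated 1 and 2, 0.0676 with total-count scaling). Ensa, an inhibitor of the phosphatase PP2A-B55, had 0.19 ± 0.14 and did not pass.

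Of 18 genes of the DREAM, B-MYB, FOXM1 and NF-Y factors, 3 fell and 2 rose, beside 18.3% lower and 17.5% higher of all tested genes. Tfdp2, a dimer partner of E2F factors, had 119.8 and 139.8 CPM in the controls and 48.3 and 55.3 CPM after stimulation, a change of -1.33 ± 0.15 (edgeR adjusted p = 0.00127). Rbl2, the p130 pocket protein of DREAM, had 465 and 479.7 CPM in the controls and 264 and 251 CPM after stimulation, a change of -0.88 ± 0.14 (edgeR adjusted p = 0.00393). Both calls held under every alternative tried. Lin37, a MuvB subunit, changed by -0.62 ± 0.16 (0.0253; 0.145 without control 1, 0.107 without stimulated 1, 0.0905 without stimulated 2), and Rbbp4, which had the highest CPM of those that did not pass, had -0.08 ± 0.14. The 2 that rose were the repressor-type E2F genes E2f5 (0.83 ± 0.22, 0.0261; 0.0905 without control 1, 0.119 without stimulated 2, 0.0577 with total-count scaling) and E2f4 (0.48 ± 0.15, 0.0410; 0.197 without control 2, 0.179 and 0.0813 without stimulated 1 and 2, 0.0623 and 0.0794 with upper quartile and total-count scaling). Foxm1 had -0.39 ± 0.19 (0.150; 0.0283 without control 2) and Mybl2, B-MYB, 0.30 ± 0.14 (0.146). These last 4 genes were named after their values were seen.

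Of 30 other centromere and kinetochore genes 7 rose and none fell in edgeR, DESeq2 or limma-voom (1 lower at an unadjusted p under 0.05). Of all tested genes, 17.5% were higher and 18.3% lower in edgeR. Ska1, which couples kinetochores to moving microtubule ends, was higher by 0.78 ± 0.15 (edgeR adjusted p = 0.0083) and Cenpw by 0.66 ± 0.14 (0.011), under every alternative tried, and Cenpx by 0.66 ± 0.17 (0.0232; 0.0993 without control 2, 0.103 without stimulated 1). Hjurp, the chaperone of CENP-A, had 0.02 ± 0.14. Of 12 other checkpoint genes 3 rose and none fell in any of these tests (0 lower at an unadjusted p under 0.05). Trip13, the ATPase that takes apart checkpoint complexes, had 22.6 and 26.1 CPM in the controls and 49.6 and 46.0 CPM after stimulation, a fold of 1.96 (0.97 ± 0.15, edgeR adjusted p = 0.00373) called under every alternative tried. Bub3, the partner of BUB1 and BUBR1, rose by 0.74 ± 0.16 (0.0139; 0.0704 without stimulated 1) and Spdl1, spindly, by 0.58 ± 0.13 (0.0158; 0.0746 without control 1, 0.0581 without stimulated 2). Kntc1 had -0.12 ± 0.13.

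Condensin and cohesin genes stayed mostly short of the threshold, with 1 of 18 higher in edgeR and 2 in DESeq2 and in limma-voom, and 0 lower, also at an unadjusted p under 0.05: Ncapg, of condensin I, rose by 0.46 ± 0.14 (edgeR adjusted p = 0.0387), and lost its call without any 1 library (0.115 and 0.125 without controls 1 and 2, 0.190 and 0.0731 without stimulated 1 and 2) and with total-count scaling (0.0612). Smc4, which had the highest CPM of those that did not pass, had 0.55 ± 0.18 (0.0511; DESeq2 0.00946). Of all tested genes, 17.5% were higher and 18.3% lower in edgeR. None of 6 other kinesins passed in edgeR, DESeq2 or limma-voom, where 0 had an unadjusted p under 0.05, and Kif15 had 0.16 ± 0.14. Of 24 other spindle and cytokinesis genes 3 fell and 1 rose, beside 18.3% lower and 17.5% higher of all tested genes. Numa1, which organises spindle poles, had 717 and 726 CPM in the controls and 468 and 429.9 CPM after stimulation (-0.68 ± 0.15, edgeR adjusted p = 0.0118; 0.0663 without stimulated 2). Aspm, a minus-end spindle protein, changed by -0.55 ± 0.14 (0.0233; 0.0765 without control 1, 0.134 without stimulated 1, 0.0676 without stimulated 2), and Shcbp1 rose by 0.62 ± 0.16 (0.0239; 0.111 without control 1, 0.0686 without stimulated 2, 0.0504 with total-count scaling). Stmn1, stathmin, named after its values were seen, was lower, at -0.58 ± 0.17 (0.0356), though not without control 1 (0.191), stimulated 1 (0.174) or stimulated 2 (0.0815). Ckap5, a microtubule polymerase, had 0.34 ± 0.14.

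Of 15 genes listed with the APC/C core, 4 were higher, 1 was lower and 10 did not pass, beside 17.5% higher and 18.3% lower of all tested genes. Ube2s, the E2 enzyme that extends the chains begun by UBE2C, had 28.1 and 23.9 CPM in the controls and 58.9 and 50.3 CPM after stimulation, a fold of 2.10 (1.07 ± 0.16, edgeR adjusted p = 0.00334). Cdc27, a scaffold subunit, had 133 and 158 CPM in the controls and 281 and 285 CPM after stimulation, a fold of 1.94 (0.96 ± 0.15, edgeR adjusted p = 0.00367). Both calls held under every alternative tried. Anapc2, the cullin subunit, changed by -0.51 ± 0.14 (0.0292), a call that ended without any 1 library (0.0646 and 0.107 without controls 1 and 2, 0.171 and 0.0901 without stimulated 1 and 2). The other genes that rose, named after their values were seen, were Cdc16 (0.48 ± 0.13, 0.0294) and Anapc16 (0.49 ± 0.13, 0.0298). Both calls ended without any 1 library (Cdc16 0.0604 to 0.141, Anapc16 0.0891 to 0.123) and with total-count scaling (0.0516 and 0.0628). Anapc5 had 0.50 ± 0.17 (0.0574; DESeq2 0.017).

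**Figure D5:**
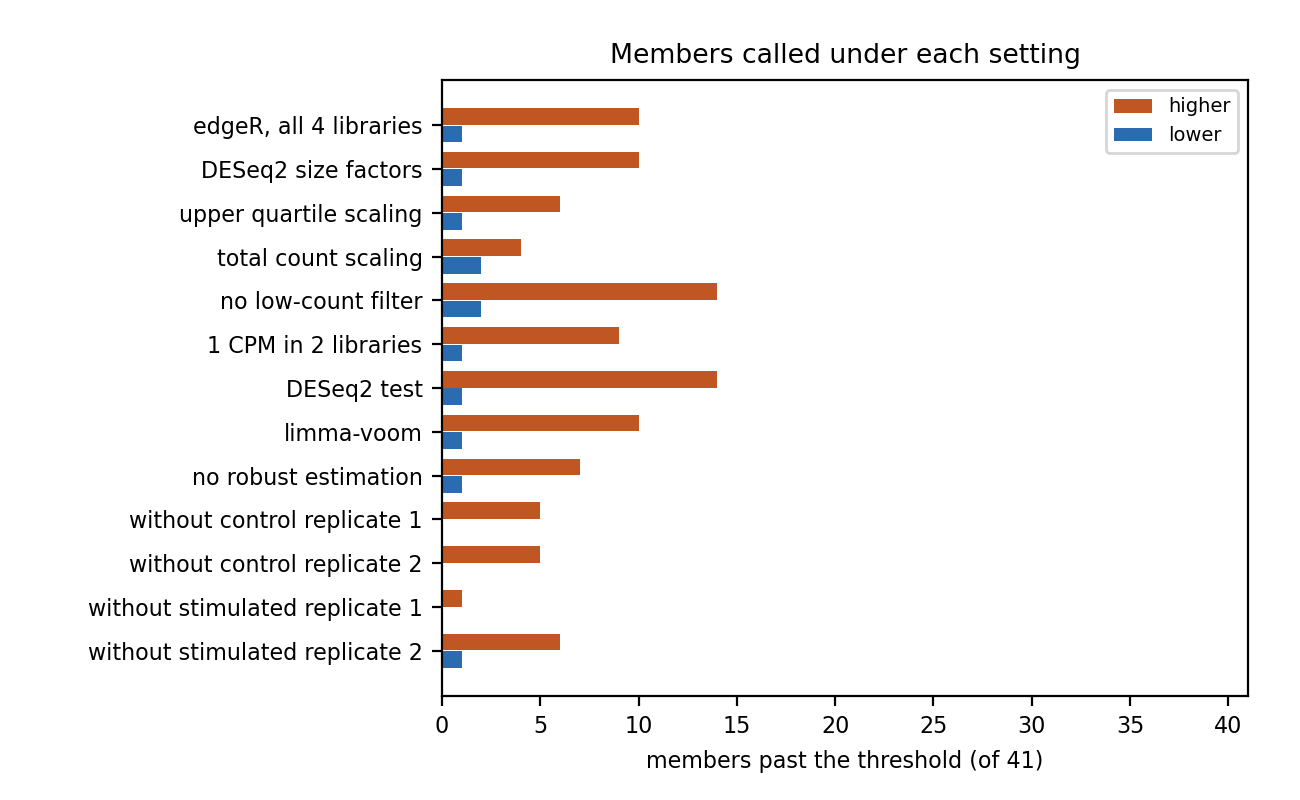
Number of the 41 members past the threshold, higher (orange) and lower (blue), in edgeR with all 4 libraries and under the other settings except the replicate block, which is not drawn. Among those drawn, the count of higher members ranges from 1 without stimulated replicate 1 to 14 with DESeq2 or with no low-count filter, beside 10 with edgeR and all 4 libraries.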

How the data were processed

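RNA-seq counts of 4 Mnk3 libraries were used. Per the submitters' processing notes, STAR, Subread and featureCounts were among the tools; their versions, the genome build, the annotation and strand use were not given in the sources used here. The deposited gene counts are whole and unnormalised, per the file headers. The authors' deposited CPM equal counts divided by each library's sum, scaled, and the authors' deposited RPKM equal those CPM per kilobase of listed length; both were checked and not used further. Levels printed as CPM and RPKM were computed from the counts with TMM factors.

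Symbols came from GENCODE M21 (40340 of 41388 identifiers matched; 99.9% of these overlap the annotated gene). Counts were fitted with edgeR 4.0.16 (filterByExpr, TMM, robust quasi-likelihood fit, treatment as the only term; R 4.3.3), with Benjamini-Hochberg adjustment over 13838 genes and a threshold of 0.05. The common biological coefficient of variation was 18.4%. Values after ± are SE, taken as the absolute change over the square root of F, an approximation; numbers alone in parentheses after a change are edgeR adjusted p-values. Libraries of a group differed beyond counting error, with a chi-square per degree of freedom of 64.4 (controls) and 38.5 (stimulated).

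Alternatives were other scalings, filters and tests (DESeq2 1.42.0, limma-voom 3.58.1), fits without robust estimation, with a replicate block and without each library. The scripts were tested on simulated counts. Of the cell type markers, 2 are not reported here. The members and gene lists were chosen with earlier results of these data known. Of the wider list, the rule for named genes took per group up to 3 called genes, by lowest adjusted p, and the gene without a call that had the highest mean CPM; members past the threshold, and otherwise the 2 of a group with the highest mean CPM, are given by library. Other values by library were picked after they were seen.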

Additional observations from a re-analysis of the deposited data

How the results depend on the processing

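The counts of called members rest on few libraries. The numbers of members called higher and lower were 10 and 1 with all libraries, 6 and 1 with upper quartile scaling and 4 and 2 with total-count scaling. They were 14 and 2 with no low-count filter and 14 and 1 with DESeq2. With 1 library left out, 1 to 6 members were higher and 0 to 1 lower; the arm with 1 library is then assumed to vary like the other. Without stimulated 1, 10 of the 11 calls ended, without control 1 or stimulated 2, 8, and without control 2, 6; fewer samples enter these fits. The median of the members was 0.31 with upper quartile scaling, 0.27 with total-count scaling and 0.27 to 0.34 with 1 library left out. Total-count scaling moved the median of all genes from -0.016 to -0.108. Of the other mitotic genes 12 were higher with total-count scaling, and with 1 library left out 8 to 14 were higher and 3 to 10 lower. Over all genes, 1593 to 2001 were higher and 1665 to 2035 lower with 1 library left out.

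Labels number only 1 library of each group and state no pairing, and there are only 2 pairs. Deviations of the same-numbered libraries from their group means correlated at 0.49 across genes. With the replicate block, 25 members were higher and 3 lower, 50 and 20 of the other mitotic genes, and 3986 and 4000 of all genes; this fit leaves 1 residual degree of freedom per gene.

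Among single genes, fitted changes near 0 that had not passed changed sign with 1 library left out, with ranges from -0.36 to 0.03 for Cdc25b (above 0 without control 2), -0.12 to 0.08 for Kif2c and -0.20 to 0.12 for Kif18b (without control 1 or stimulated 2), -0.46 to 0.15 for Mki67 (without stimulated 1), -0.30 to 0.01 for Ect2 (without stimulated 2), -0.02 to 0.21 for Ckap2 (below 0 without control 1), -0.15 to 0.01 for Rbbp4 (above 0 without stimulated 1) and -0.07 to 0.10 for Hjurp (below 0 without control 2 or stimulated 1). Hjurp was also -0.04 with upper quartile and -0.07 with total-count scaling. Of 1014 values of 78 named genes under the alternatives, 848 kept direction and side of the threshold, 106 lost the call, 47 gained it and 13 changed sign. The cause was not tested.

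With only the 250 bases before the start, 34.3% of member promoters had a CHR match in place of 80.0%, since many matches lie after it. Of 35 RefSeq starts, 7 lay more than 50 bases from the start in the count tables, and matches near those starts depend on which is used.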

Other observations

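Within each group, some members differed between the 2 libraries by as much as between groups. The median absolute log2 difference between libraries was 0.17 in the controls and 0.15 in the stimulated libraries, beside a median absolute change of 0.38 between groups. Cdca8 had the widest gaps, at 0.67 in the controls and 0.75 in the stimulated libraries, with library 1 the higher in both. Plk1, Aurka, Birc5, Cdca8 and Cdc20 were each more than 0.3 higher in library 1 than in library 2 in both groups. Fzr1 had the opposite order, at -0.51 in the controls and -0.61 in the stimulated libraries. These genes were picked out after their values were seen.

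The members are not spread evenly over the chromosomes. Chromosome 2 carries 8 of 41 (19.5%), among them Aurka, Tpx2, Bub1, Bub1b and Ube2c, and 7.87% of all tested genes. Chromosome 11 carries 5 (12.2%), among them Top2a, Birc5 and Hmmr, and 8.64% of tested genes.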
